A study of Mus musculus with 6 samples.

Results

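The genes described here make up the contractile actin cytoskeleton and its transcriptional control: actins, myosins, the proteins that bind or crosslink actin filaments, the transcription factor SRF, its MRTF coactivators and regulators upstream of them. They were chosen by name, 46 genes in all, with earlier results of these data known. Of them 45 have a row among the 43760 rows of the deposited count table. The expression of Cnn1 (calponin 1) was not analysed here. RNA sequencing measured them in 3T3-L1 cells, a mouse preadipocyte line of fibroblast type that stores fat once differentiated. Differentiated cells were taken on day 7 after IBMX, insulin, dexamethasone and rosiglitazone (3 libraries), and undifferentiated cells on day 0 with no differentiation treatment (3 libraries). All cells carry the genotype label WT, and the line is a single established one grown in culture. Separate cultures are not stated in the labels, and the p-values therefore refer to the spread among these libraries, which may be technical. All 3 day 7 columns carry the heading of replicate 1. They are named here by column order: the first, the second, the third. Each library was made from bulk RNA, so fewer cells that express a gene and less RNA per cell cannot be told apart.

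Actin monomers assemble into filaments, and bipolar myosin filaments pull on bundled actin to make the stress fibres by which a spread fibroblast holds its shape. SRF binds a DNA element called the CArG box, a run of A and T bases between CC and GG, in the promoters of many of these genes. Its coactivators MRTF-A and MRTF-B, encoded by Mkl1 and Mkl2, are held inactive by binding actin monomers, and they are released when monomers are driven into filaments. Preadipocytes are flat and rich in stress fibres, and rounding up with loss of these fibres is a known feature of adipocyte differentiation in this line.

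The CArG box was searched in promoter windows of 250 bases before to 50 bases after each RefSeq start (build GRCm38.p6), on both strands, and 41 members had at least 1 window. An exact CArG box was found in 6 of 53 member windows, or 11.3%, beside 535 of 32851 windows of all genes, or 1.63%. With 1 mismatch allowed it was found in 35.8% of member windows and 21.1% of all windows. The letters CATTCC, the core of the MCAT element bound by TEAD factors, were found on either strand in 28.3% of member windows and 14.7% of all windows. Such a match is a description of the letters only. The windows of 5 members with an exact box are printed below, followed by that of Acta2, in which 2 boxes with 1 mismatch were found. Each is given 5′ to 3′ on the gene's strand, as 180 bases before the RefSeq start and 20 bases from that start on. Whether transcription begins at these annotated starts in these cells was not examined. Exact boxes are in capitals in the first 5 windows, and the mismatched boxes are in capitals in that of Acta2. Boxes with 1 mismatch also began 99 bases before the start in Myl9 and 39 in Srf, and are left in lower case.
Myl9 (chr2:156775284-156775483, plus strand): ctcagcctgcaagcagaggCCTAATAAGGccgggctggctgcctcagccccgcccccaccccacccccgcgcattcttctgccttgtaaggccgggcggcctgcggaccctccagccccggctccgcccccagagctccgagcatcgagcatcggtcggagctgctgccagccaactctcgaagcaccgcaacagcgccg
Cnn2 (chr10:79988420-79988619, plus strand): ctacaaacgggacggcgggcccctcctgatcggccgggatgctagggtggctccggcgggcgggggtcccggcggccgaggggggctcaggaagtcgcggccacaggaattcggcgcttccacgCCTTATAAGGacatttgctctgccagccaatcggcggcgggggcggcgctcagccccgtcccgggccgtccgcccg
Actg1 (chr11:120348476-120348675, minus strand): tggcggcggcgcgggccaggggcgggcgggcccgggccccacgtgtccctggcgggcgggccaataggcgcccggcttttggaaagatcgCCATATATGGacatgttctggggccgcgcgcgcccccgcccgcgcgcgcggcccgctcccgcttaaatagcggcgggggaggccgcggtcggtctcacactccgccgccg
Srf (chr17:46556143-46556342, minus strand): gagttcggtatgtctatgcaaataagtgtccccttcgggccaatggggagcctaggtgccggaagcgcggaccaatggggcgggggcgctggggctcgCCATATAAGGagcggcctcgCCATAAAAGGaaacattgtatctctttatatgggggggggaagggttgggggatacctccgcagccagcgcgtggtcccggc
Myl6 (chr10:128492990-128493189, minus strand): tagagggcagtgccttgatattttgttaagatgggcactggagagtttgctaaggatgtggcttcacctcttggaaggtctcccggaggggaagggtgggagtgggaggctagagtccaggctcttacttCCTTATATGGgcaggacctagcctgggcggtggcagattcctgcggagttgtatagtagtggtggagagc
Acta2 (chr19:34255354-34255553, minus strand): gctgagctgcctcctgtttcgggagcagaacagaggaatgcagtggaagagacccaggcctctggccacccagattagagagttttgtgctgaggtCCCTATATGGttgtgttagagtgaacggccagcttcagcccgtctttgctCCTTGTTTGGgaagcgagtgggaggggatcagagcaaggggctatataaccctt

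The exact box began 161 bases before the start in Myl9, 56 in Cnn2, 90 in Actg1 and 50 in Myl6. Srf held a pair of exact boxes, 82 and 62 bases before its start, and the mismatched boxes of Acta2 began 84 and 34 bases before it. Acta1, the skeletal muscle actin, had the remaining exact box, 73 bases before its start. Of the 6 genes with an exact box, Myl9, Cnn2, Actg1 and Srf fell on day 7, Myl6 did not pass the test and Acta1 had too few counts to be tested. Actb, Actg2, Myh11, Tagln and Rock1 were not searched.

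Total estimated counts were 7655822 to 16987076 in the day 7 libraries and 10805962 to 14132016 in the day 0 libraries. The members took 0.413%, 0.311% and 0.414% of these counts in the day 7 libraries and 1.10%, 1.24% and 1.22% in the day 0 libraries. With each pair scaled by total counts, libraries of the same day differed by more than sampling noise. The mean chi-square per gene was at least 6.38 in each pair. Shifts in a few abundant genes can raise this mean, so it does not show excess spread in each gene. Each library was counted as 1 replicate. Along the second principal component, with 7.48% of the variance, the third day 7 library stood apart at 44.7, beside -16.8 and -23.7 for the first and the second. The labelled cell states were checked by marker genes. Summed over 9 adipocyte markers such as Adipoq and Plin1, the level was 12053 to 14058 CPM (counts relative to library size, scaled between libraries by TMM) on day 7 and 525 to 557 CPM on day 0. Summed over 10 preadipocyte and fibroblast markers such as Pdgfra and Dlk1 it was 1819 to 2992 CPM on day 7 and 8294 to 9185 CPM on day 0, and all 9 that were tested fell. The defining smooth muscle factor Myocd had 0 counts in all day 7 libraries and at most 0.0834 CPM on day 0, and the skeletal muscle factors Myod1, Myog and Myf5 had none in any library. The part of these shifts in the results below was not tested.

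Of the 44 members with enough counts to be tested, 37 fell and 2 rose on day 7 at a Benjamini-Hochberg adjusted p under 0.05 in edgeR's quasi-likelihood test, and 5 did not pass. Thus 84.1% of the tested members fell and 4.55% rose, whereas of all 12354 tested genes 29.2% fell and 30.8% rose. On the filter for low counts, which asks for 3 libraries at its minimum, Actg2 reached that minimum in 0 day 7 libraries and 3 day 0 libraries, and Myh11 in 3 day 7 libraries and 0 day 0 libraries. Myl9 and Tagln reached it in 2 day 7 libraries and 3 day 0 libraries, so these 4 genes were tested because of the day on which they were higher. Past the same threshold and at least 2-fold lower were 27 members, beside 17.7% of all genes, and past it and at least 2-fold higher were 2, beside 16.0%. For 36 members every day 7 library lay below every day 0 library, which was the case for 34.1% of all genes. For 3 members, Myh10, Myh11 and Rock1, every day 7 library lay above, beside 34.2% of all genes. The members' median log2 fold change was -1.39, against 0.02 over all tested genes. Their summed level was 3979, 4006 and 4300 CPM in the day 7 libraries and 10863, 10888 and 10978 CPM in the day 0 libraries. These sums were close together within each day and did not overlap between days. When libraries were scaled by total counts alone, the split over all genes moved to 2355 that rose and 4025 that fell, beside 3802 and 3611 with TMM, and the median of all genes was -0.21. The members' median was then -1.63, and 37 fell and 2 rose as before.

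**Figure D1:**
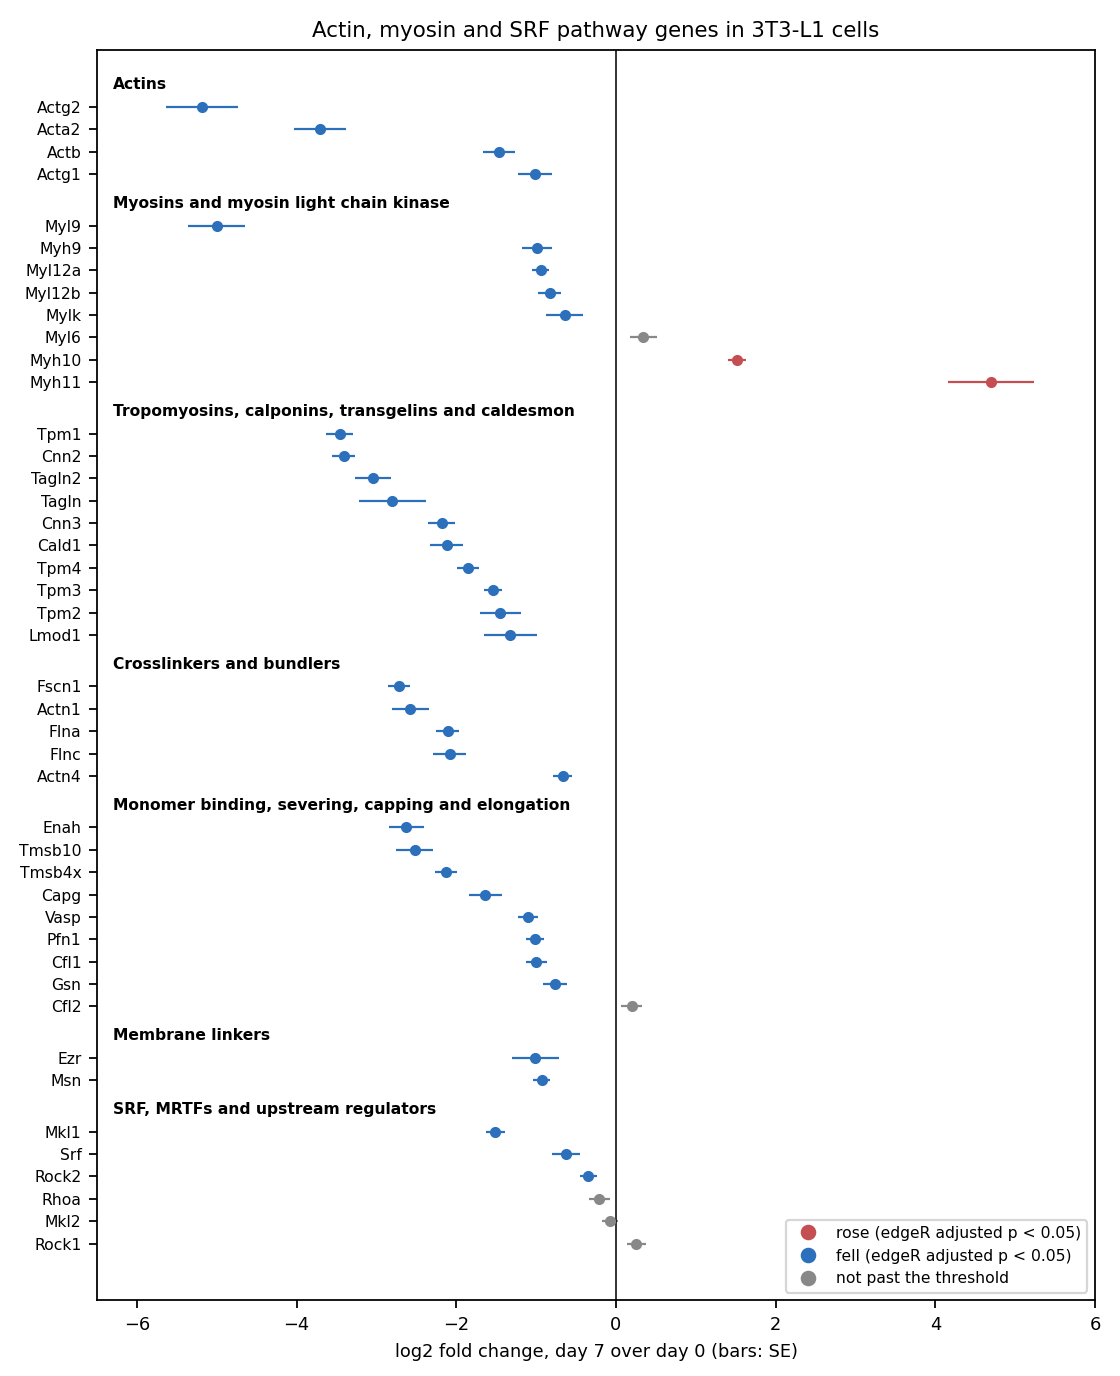
Log2 fold change of each tested member, day 7 over day 0 (x axis; points are the edgeR estimates from 3 libraries per day, bars are standard errors), grouped by role. The 37 members that fell lie left of zero, Myh10 and Myh11 lie right of it past the threshold, and 5 members are drawn grey.

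All 4 tested actins fell. Acta2, the smooth muscle alpha-actin that marks contractile fibroblasts, stood at 15.3, 34.9 and 37.2 CPM in the day 7 libraries and at 379.6, 383 and 369 CPM in the day 0 libraries. The days did not overlap, and the first day 7 library was the lowest. Its log2 fold change was -3.71 ± 0.33 (SE), a 13.1-fold lower level (edgeR adjusted p = 5.9e-05). Actg2, the gamma-actin of visceral smooth muscle, had 3, 4 and 0 counts in the day 7 libraries and 100, 127 and 76 counts in the day 0 libraries. Its log2 fold change was -5.18 ± 0.45 (edgeR adjusted p = 5.3e-05), resting on 7 counts in all on day 7, and it moved to -5.91 without the second day 7 library. Acta1 had at most 5 counts in any library and was not tested.

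The cytoplasmic actins build the cortex and stress fibres of nonmuscle cells, and both fell. Actb (beta-actin) stood at 888, 652 and 999.9 CPM in the day 7 libraries and at 2256, 2293 and 2475 CPM in the day 0 libraries, 2.77-fold lower on day 7 (log2 fold change -1.47 ± 0.20, edgeR adjusted p = 0.00053). Actg1 (gamma-actin) stood at 380.2, 255 and 219.7 CPM in the day 7 libraries and at 573, 595 and 554 CPM in the day 0 libraries, 2.01-fold lower on day 7 (edgeR adjusted p = 0.0042). For both genes the days did not overlap and the day 7 libraries were the more widely spread. Both had fractional counts in all 6 libraries, which can arise where reads are divided between near-identical copies, so their exact levels are uncertain.

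Per kilobase of exon, the summed level of the 5 actins was 482, 355 and 473 RPKM in the day 7 libraries and 1236, 1259.7 and 1304 RPKM in the day 0 libraries. Acta2 made up 1.45%, 4.47% and 3.58% of that sum on day 7 and 14.0%, 13.8% and 12.9% on day 0. Actb was the main isotype at both times, with 72.1% ± 5.93 on day 7 and 69.0% ± 1.61 on day 0 (SD, n = 3 each), and its libraries overlapped. Actg1 held 24.7% ± 6.41 on day 7 and 17.1% ± 0.958 on day 0, also with overlap, since the third day 7 library at 17.5% lay below day 0 replicate 2 at 17.8%.

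Among the myosins, the regulatory light chains and myosin IIA fell while 2 heavy chains rose. Myl9, a regulatory light chain of smooth muscle and nonmuscle myosin, stood at 0.340, 1.32 and 1.22 CPM in the day 7 libraries and at 27.2, 26.7 and 28.5 CPM in the day 0 libraries. With 28 counts in all on day 7 beside 1081 on day 0, it was 32.0-fold lower (log2 fold change -5.00 ± 0.36, edgeR adjusted p = 2.3e-05). The nonmuscle regulatory light chains fell less than 2-fold, with log2 fold changes of -0.94 ± 0.10 for Myl12a and -0.83 ± 0.14 for Myl12b (edgeR adjusted p = 0.00016 and 0.0017). These genes are close copies with fractional counts in all 6 libraries, and they share 462 exon bases on the same strand, so the division of reads between them is uncertain. Myl6, the essential light chain, stood at 96.3, 145 and 143 CPM in the day 7 libraries and at 106, 96.9 and 99.8 CPM in the day 0 libraries. The days overlapped in the first day 7 library and the test was not passed (log2 fold change 0.34 ± 0.17, edgeR adjusted p = 0.12), though it was without that library (adjusted p = 0.0051).

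The heavy chains of nonmuscle myosin moved in opposite directions. Myh9, the heavy chain of myosin IIA, stood at 281, 429 and 409.9 CPM in the day 7 libraries and at 771, 769 and 684 CPM in the day 0 libraries, 1.99-fold lower on day 7 (edgeR adjusted p = 0.0027). Myh10, the heavy chain of myosin IIB, stood at 215, 227 and 212 CPM in the day 7 libraries and at 80.5, 79.5 and 68.6 CPM in the day 0 libraries. Its 2.86-fold higher level (log2 fold change 1.52 ± 0.12, edgeR adjusted p = 3.1e-05) thus exceeded a small spread within each day; both heavy chains had fractional counts in 5 libraries. Per kilobase of exon, Myh10 was 48.7%, 39.5% and 39.0% of the 2 heavy chains on day 7 and 11.4%, 11.3% and 11.0% on day 0. Their summed level was 49.7 ± 6.59 RPKM on day 7 and 64.6 ± 4.50 RPKM on day 0 (SD, n = 3 each).

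Myh11, the smooth muscle myosin heavy chain, had 129, 121 and 33 counts in the day 7 libraries and 5, 6 and 1 counts in the day 0 libraries. Scaled, this was 7.31, 12.3 and 4.48 CPM on day 7 and 0.439, 0.373 and 0.0834 CPM on day 0, with no overlap. The log2 fold change was 4.69 ± 0.54 (edgeR adjusted p = 0.00021), in the opposite direction to the smooth muscle actins, light chain and transgelin. Myh11 passed the low-count filter through its day 7 libraries, whereas Actg2, Myl9 and Tagln needed their day 0 libraries to pass. The directions of these genes are therefore not independent of that filter. Markers of smooth muscle outside the members summed to 34.7 to 41.4 CPM on day 7 and 16.1 to 19.8 CPM on day 0, where Des alone had 20.5 to 25.7 CPM on day 7, and of these Kcnmb1 and Pln had no count in any library. Mylk, the kinase that phosphorylates the regulatory light chains, stood at 24.4, 28.9 and 41.7 CPM in the day 7 libraries and at 54.9, 55.0 and 37.0 CPM in the day 0 libraries. Its days overlapped, since day 0 replicate 3 was low and the third day 7 library high. It passed the threshold narrowly (log2 fold change -0.64 ± 0.23, edgeR adjusted p = 0.043), and missed it without day 0 replicate 1 or 2 or the first or second day 7 library (adjusted p of 0.11 to 0.13).

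**Figure D2:**
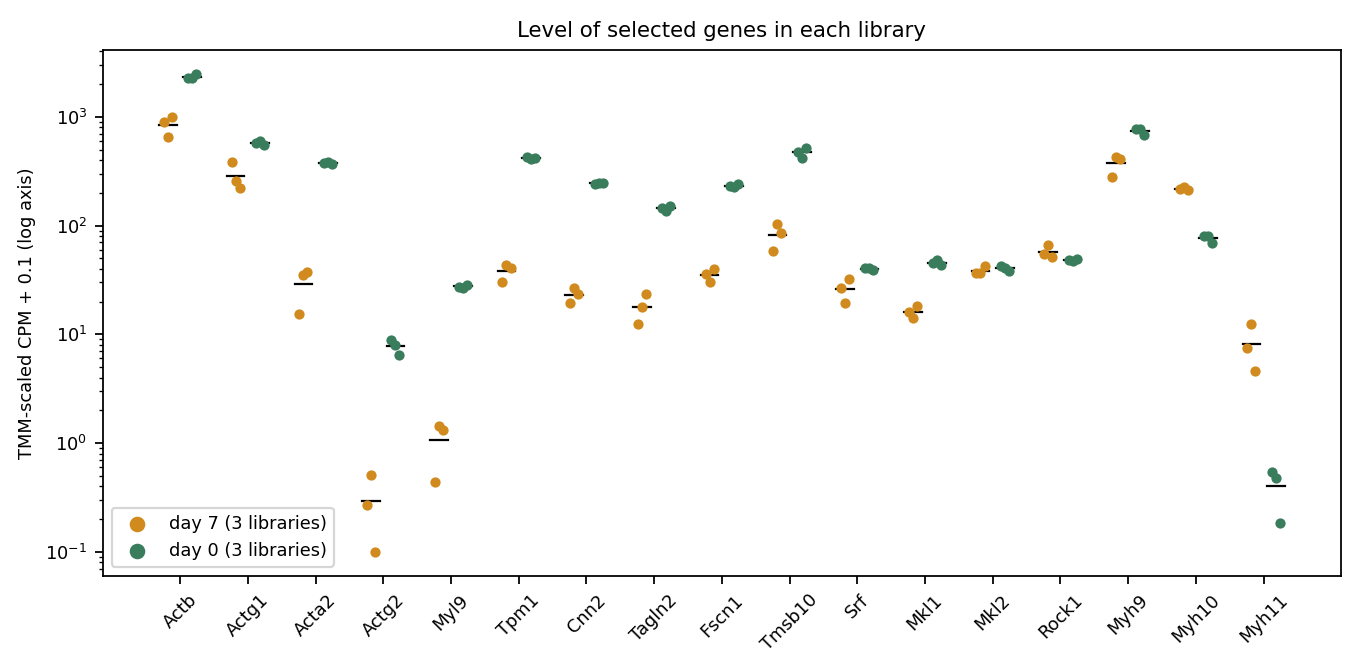
TMM-scaled CPM + 0.1 of 17 members in each library (log y axis; points are libraries, bars are means of 3), day 7 left of day 0 for each gene; heights compare libraries within a gene, not genes. Acta2, Actg2, Myl9 and Tpm1 show the wide gaps below day 0, Myh10 and Myh11 lie above it, and Mkl2 overlaps.

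The 10 tested genes of tropomyosins, calponins, transgelins, caldesmon and the leiomodin Lmod1 all fell. Their median log2 fold change was -2.15, with a range of -3.46 to -1.33. Tropomyosins are coiled-coil dimers that cover the filament and set which other proteins can bind it. Tpm1, the tropomyosin of stress fibres and muscle, stood at 30.4, 43.6 and 40.3 CPM in the day 7 libraries and at 425, 411 and 420.2 CPM in the day 0 libraries, 11.0-fold lower on day 7 (edgeR adjusted p = 6.3e-06). Tpm2, Tpm3 and Tpm4 were 2.73-fold, 2.90-fold and 3.61-fold lower, and in none of the 4 genes did the days overlap. Per kilobase of exon, Tpm1 made up 8.91%, 10.9% and 12.5% of tropomyosin on day 7 and 28.3%, 27.6% and 27.4% on day 0. Tpm4 made up 68.6% ± 3.77 on day 7 and 58.4% ± 0.845 on day 0, and the summed level was 54.7 ± 6.35 RPKM on day 7 and 232.5 ± 3.78 RPKM on day 0 (SD, n = 3 each). Tpm3 and Tpm4 had fractional counts in 6 and 4 libraries. The tropomyosin shares depend on the length used: with the longest transcript in place of all exons, Tpm1 had 17.1% on day 7 and 40.6% on day 0, and Tpm4 50.6% on day 7 and 39.4% on day 0. The order of the days was the same with either length for both genes.

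**Figure D3:**
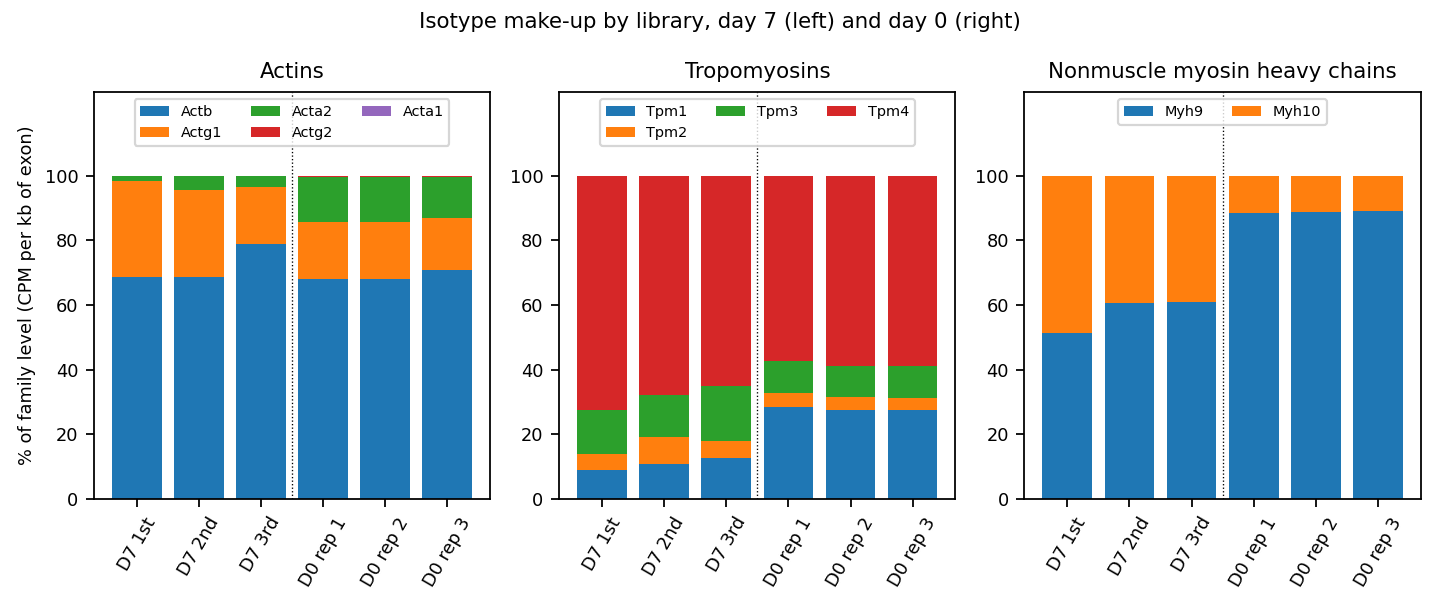
Share of each gene in the summed level of its family, as TMM-scaled CPM per kilobase of exon, in each library (D7 is day 7, D0 is day 0; bars sum to 100%). Acta2 and Tpm1 take a smaller share on day 7 than on day 0 in every library, and Myh10 a larger one, at 39.0% to 48.7% beside 11.0% to 11.4%.

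Calponins and transgelins are related proteins that bind and stabilise actin filaments. Cnn2, the calponin of fibroblasts and smooth muscle, stood at 19.4, 26.4 and 23.4 CPM in the day 7 libraries and at 242, 244 and 246 CPM in the day 0 libraries, 10.6-fold lower on day 7 (log2 fold change -3.41 ± 0.15, edgeR adjusted p = 3.8e-06). Cnn3, the acidic calponin, was 4.53-fold lower. Per kilobase of exon, Cnn3 was 61.0% ± 2.61 of the 2 calponins on day 7 and 40.3% ± 1.52 on day 0 (SD, n = 3 each). With this length Cnn3 had the larger share on day 7 and Cnn2 on day 0. These shares depend on the length used: Cnn3 has 3037 bases over all exons and 2214 in its longest transcript. Cnn2 has 2460 by either measure. Tagln (transgelin), a smooth muscle marker and SRF target, stood at 0.793, 3.46 and 1.77 CPM in the day 7 libraries and at 13.5, 13.9 and 12.3 CPM in the day 0 libraries. The second day 7 library was the highest of its day, still below every day 0 library. Its log2 fold change was -2.80 ± 0.42 (edgeR adjusted p = 0.00079), and -3.53 without that library. An antisense gene covers 62.4% of the exon bases of Tagln, and whether the counting used strand is not given in the sources used here.

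Tagln2, its broadly expressed relative, stood at 12.2, 17.7 and 23.2 CPM in the day 7 libraries and at 145, 137 and 150.4 CPM in the day 0 libraries, 8.25-fold lower on day 7 (edgeR adjusted p = 2.5e-05). It made up 89.8% ± 5.87 of the 2 transgelins per kilobase on day 7 and 91.2% ± 0.856 on day 0, with overlap. Cald1 (caldesmon), which restrains myosin on the filament, stood at 105, 154 and 178 CPM on day 7 and at 619.8, 632 and 643 CPM on day 0 and was 4.35-fold lower. Lmod1, a leiomodin that seeds filaments in smooth muscle, was scarce at 2.94 ± 1.40 CPM on day 7 and 7.12 ± 0.568 CPM on day 0 (log2 fold change -1.33 ± 0.33, edgeR adjusted p = 0.0098). None of these 3 genes overlapped between the days.

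All 5 crosslinkers and bundlers fell, and 4 of them fell more than 4-fold. Fscn1 (fascin), which bundles the filaments of filopodia, stood at 36.1, 30.0 and 39.4 CPM in the day 7 libraries and at 230.0, 224 and 238 CPM in the day 0 libraries, 6.57-fold lower on day 7 (edgeR adjusted p = 6.6e-06). Flna (filamin A), which joins filaments at angles and ties them to the membrane, stood at 186, 220.3 and 182 CPM on day 7 and at 846, 891 and 797 CPM on day 0, 4.31-fold lower. Flnc, the filamin of muscle, was 4.24-fold lower. Alpha-actinins crosslink antiparallel filaments in stress fibres, and their 2 genes differed in size of change. Actn1 stood at 29.0, 31.7 and 52.8 CPM on day 7 and at 221, 237 and 216 CPM on day 0, a log2 fold change of -2.58 ± 0.23. Actn4 stood at 99.8, 94.0 and 117 CPM on day 7 and at 159, 167 and 169 CPM on day 0, a log2 fold change of -0.67 ± 0.12 (edgeR adjusted p = 6.4e-05 for Actn1 and 0.0019 for Actn4). The difference between these genes was not tested.

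Of 9 proteins that bind monomers or sever, cap and elongate filaments, 8 fell and Cfl2 did not pass the test. Tmsb10 and Tmsb4x encode thymosins that hold actin monomers in reserve. Tmsb10 stood at 57.9, 104 and 84.9 CPM in the day 7 libraries and at 479, 418 and 518 CPM in the day 0 libraries, 5.74-fold lower on day 7 (edgeR adjusted p = 6.6e-05), with fractional counts in all 6. Tmsb4x stood at 34.7, 37.8 and 27.2 CPM on day 7 and at 146, 143 and 149 CPM on day 0, 4.39-fold lower. Pfn1 (profilin), which hands monomers to growing filament ends, was 2.02-fold lower, at 101 ± 5.89 CPM on day 7 and 204 ± 8.84 CPM on day 0 (SD, n = 3 each). Enah (Mena) and Vasp promote elongation at the leading edge; Enah was 6.17-fold lower and Vasp 2.14-fold lower. Capg, a capping protein, was 3.11-fold lower, and Gsn (gelsolin), which severs and caps, 1.70-fold lower, with all day 7 libraries below day 0 for these 4 genes.

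Cofilins sever ageing filaments. Cfl1, the nonmuscle cofilin, stood at 150.0, 143 and 179.6 CPM in the day 7 libraries and at 315, 295 and 332 CPM in the day 0 libraries (1.99-fold lower on day 7, edgeR adjusted p = 0.00049), with fractional counts in 5 libraries. Cfl2, the cofilin of muscle, stood at 37.6, 30.3 and 37.9 CPM on day 7 and at 32.8, 27.6 and 32.0 CPM on day 0. Its days overlapped, its log2 fold change of 0.20 ± 0.13 did not pass the test (edgeR adjusted p = 0.22), and under total-count scaling the sign turned to -0.01. Per kilobase, Cfl2 was 17.9%, 15.6% and 15.5% of the 2 cofilins on day 7 and 8.31%, 7.54% and 7.75% on day 0, with no overlap.

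The membrane linkers ezrin and moesin, which tie the cortex to the plasma membrane, both fell. Msn (moesin) stood at 122, 129 and 134 CPM in the day 7 libraries and at 237, 248 and 250.5 CPM in the day 0 libraries, 1.91-fold lower on day 7 (edgeR adjusted p = 0.00023). Ezr (ezrin), the epithelial member of the family, was scarcer, at 11.6, 12.3 and 5.02 CPM on day 7 and 22.3, 17.3 and 19.8 CPM on day 0. The third day 7 library was low and no day 7 library reached day 0 (log2 fold change -1.01 ± 0.29, edgeR adjusted p = 0.019). The call was lost without day 0 replicate 1 (adjusted p = 0.063) or replicate 3 (adjusted p = 0.053).

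Of the 6 regulators 3 fell and none rose, with a median log2 fold change of -0.28, beside 29.2% of all genes that fell. Srf itself stood at 26.5, 19.1 and 31.9 CPM in the day 7 libraries and at 40.3, 40.5 and 38.7 CPM in the day 0 libraries, 1.55-fold lower on day 7 with no overlap (log2 fold change -0.63 ± 0.17, edgeR adjusted p = 0.015). Without day 0 replicate 2 its adjusted p was 0.051. Mkl1, encoding MRTF-A, stood at 16.0, 14.1 and 17.9 CPM on day 7 and at 45.1, 47.9 and 43.7 CPM on day 0, 2.85-fold lower with little spread (log2 fold change -1.51 ± 0.12, edgeR adjusted p = 3.5e-05). Mkl2, encoding MRTF-B, stood at 36.5, 36.8 and 42.1 CPM on day 7 and at 42.1, 40.6 and 38.5 CPM on day 0. Its days overlapped and the test was not passed (log2 fold change -0.07 ± 0.10, edgeR adjusted p = 0.56). Per kilobase, Mkl2 was 62.1% ± 1.65 of the 2 coactivator transcripts on day 7 and 37.6% ± 1.14 on day 0 (SD, n = 3 each). The RNA of MRTF-B was thus the more abundant of the pair on day 7, and that of MRTF-A on day 0.

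Upstream of the coactivators, Rhoa, the small GTPase that drives stress fibre assembly, stood at 168, 136 and 134 CPM in the day 7 libraries and at 162, 161 and 182 CPM in the day 0 libraries. The days overlapped and the log2 fold change of -0.21 ± 0.13 did not pass the test (edgeR adjusted p = 0.21), with fractional counts in all 6 libraries; without the first day 7 library the adjusted p was 0.049. The kinases it activates had fold changes of opposite sign. Rock2 stood at 129.7, 128 and 119 CPM on day 7 and at 158, 157 and 163 CPM on day 0 (log2 fold change -0.34 ± 0.10, edgeR adjusted p = 0.020), a call that was lost without any 1 of the day 0 replicates (adjusted p of 0.063 to 0.070). Rock1 stood at 54.7, 66.4 and 51.3 CPM on day 7 and at 48.3, 47.0 and 49.4 CPM on day 0. All its day 7 values lay above day 0, but the test was not passed (log2 fold change 0.25 ± 0.12, edgeR adjusted p = 0.098) except without the third day 7 library (adjusted p = 0.027).

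In order of level per kilobase of exon, the most abundant members on day 7 were Actb at 316 ± 66.2 RPKM, Actg1 at 107 ± 31.8, Tmsb10 at 64.5 ± 18.1, Cfl1 at 55.4 ± 6.87 and Gsn at 53.6 ± 8.70 (SD, n = 3). The levels of Tmsb10, Cfl1 and Gsn lay within the SD of Tmsb10 of one another. On day 0 the order was Actb at 874 ± 43.7 RPKM, Tmsb10 at 369.6 ± 39.2, Actg1 at 216 ± 7.81, Acta2 at 172 ± 3.35 and Tpm4 at 136 ± 3.35, each step larger than the SDs. The SDs do not cover the choice of length, on which these orders depend. Tmsb4x, for example, has 1371 bases over all exons and 864 in its longest transcript, Tpm4 2203 and 2128. Acta2 averaged 13.3 ± 5.48 RPKM on day 7. Measured against the day 0 mean, the members' median log2 value was -1.44 in the first, -1.15 in the second and -1.35 in the third day 7 library, so the library that stood apart was the middle one for these genes. Without the third library 37 members fell, and the median log2 fold change was -1.33.

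Other genes of the pathway were taken from 8 lists, whose counts are to be set beside 29.2% of all genes that fell and 30.8% that rose. Of 24 tested MRTF and SRF cytoskeletal targets outside the members, 19 fell and 1 rose (median log2 fold change -1.42), and 2 rose without the second day 7 library. Of those that fell, Ctgf, Ankrd1, Synpo2 and Nexn did not reach the minimum of the low-count filter in any day 7 library. They were thus tested because of their day 0 counts. Filip1l, a filamin-interacting protein, was at 6.55 ± 1.04 CPM on day 7 and 88.9 ± 9.20 CPM on day 0, and the LIM protein Fhl2 at 3.03 ± 1.10 CPM on day 7 and 29.4 ± 3.30 CPM on day 0. Csrp2, Smtn, Cyr61 and Lpp did not pass the test, and their days overlapped. The gene that rose was Des (desmin), an intermediate filament protein of muscle. Des stood at 20.5, 25.3 and 25.7 CPM in the day 7 libraries and 2.46, 3.29 and 3.17 CPM in the day 0 libraries. It was 7.92-fold higher on day 7 (edgeR adjusted p = 1.1e-05). Of 11 tested SRF partner factors and immediate early genes, which SRF controls with ternary complex factors, 7 rose and 1 fell (median 1.60). The number that rose was 4 when any 1 of the day 0 replicates was left out, and 2 fell without the third day 7 library. Among the 7 that rose, Egr1 and Fosb overlapped between the days. In the second day 7 library they stood at 77.4 and 4.27 CPM. Their day 0 levels were 75.2 ± 5.30 and 7.70 ± 1.79 CPM. Elk4, a ternary complex factor that rose, was only 1.28-fold higher on day 7. Fos stood at 86.8, 15.2 and 128 CPM on day 7 and at 13.5, 14.9 and 12.5 CPM on day 0 (log2 fold change 2.49 ± 0.64, edgeR adjusted p = 0.011), so the second day 7 library was close to day 0 while the others were far above it. Egr2 stood at 15.4, 4.68 and 35.2 CPM on day 7 and 1.52 ± 0.135 CPM on day 0 (log2 fold change 3.57 ± 0.69), or 2.76 without the third day 7 library. Elk3, a ternary complex factor, fell 8.38-fold to 5.76 ± 2.31 CPM on day 7, against 46.2 ± 2.36 CPM on day 0.

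Of 8 tested formins and elongation factors, 7 fell and none rose (median -1.25), with the formin Daam2 3.82-fold lower and the profilin Pfn2 3.56-fold lower. Of 18 Arp2/3 and WAVE genes, which make branched networks, 9 fell and 2 rose (median -0.29, beside 29.2% and 30.8% of all genes), and 5 fell without day 0 replicate 2. The number that rose was 1 when any single library other than the third day 7 one was left out, with no filter, and under total-count scaling. Cttn (cortactin) was 1.85-fold lower and the Arp2/3 subunit Actr2 1.59-fold lower, while the subunit Arpc5l was 1.85-fold higher. Among 17 capping, severing and turnover genes 10 fell and 1 rose (median -0.63). Eps8, which caps and bundles, was 3.35-fold lower, and Dstn (destrin), a relative of cofilin, stood at 72.0, 65.8 and 128 CPM on day 7 and 293 ± 12.7 CPM on day 0. Coro1b, a coronin and the gene that rose, was 1.65-fold higher but not past the threshold under total-count scaling (edgeR adjusted p = 0.12).

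Of 16 LIM kinase, slingshot and myosin phosphatase genes 7 fell and 3 rose (median -0.02), beside 29.2% and 30.8% of all genes. Among them were citron kinase Cit, 4.28-fold lower, Pak1, 4.03-fold lower, and the cofilin phosphatase Ssh2, 4.80-fold higher. Of 9 other myosins 3 fell and 3 rose (1 rose under total-count scaling), shares near those of all genes. Myo1e was 3.72-fold lower and Myo6 2.66-fold higher. Myo10 was 1.85-fold lower (edgeR adjusted p = 0.020), a call lost without day 0 replicate 1 or 2 or the second day 7 library. Of 5 partners of ezrin and moesin 3 fell and 1 rose: Pdpn (podoplanin) was 9.56-fold and Cd44 4.43-fold lower, and Nf2 (merlin) was 1.46-fold higher, though not past the threshold under total-count scaling (edgeR adjusted p = 0.22).

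**Figure D4:**
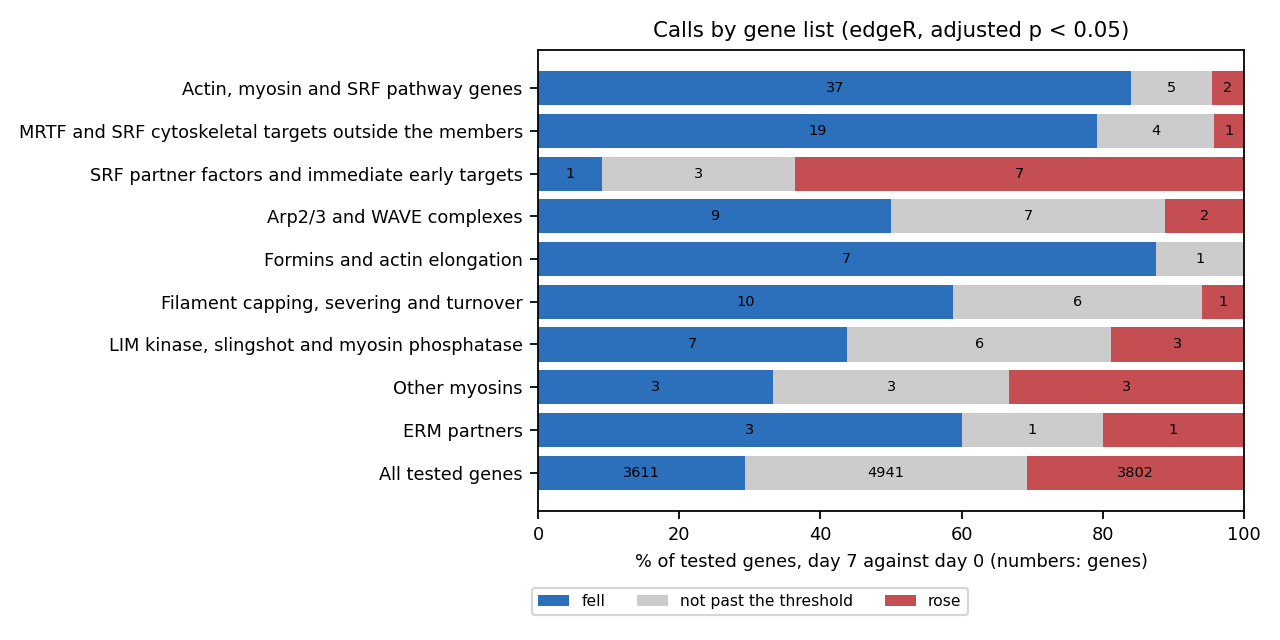
Share of the tested genes of each list that fell, did not pass or rose on day 7 against day 0 (x axis in %, numbers are genes; edgeR, adjusted p under 0.05), with all 12354 tested genes in the bottom bar. The members, their cytoskeletal SRF target relatives and the formins are mostly blue, with 37 of 44, 19 of 24 and 7 of 8 that fell. The list of SRF partner factors and immediate early genes is mostly red. There 7 of 11 rose, with Egr1 and Fosb overlapping between the days.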

How the data were processed

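RNA of 3T3-L1 cells was sequenced at day 7 and day 0, with 3 libraries each. Per the labels' protocols, a stranded total RNA kit of Illumina and a NovaSeq sequencer were used. The submitters' processing notes name Salmon 1.9.0, STAR 2.7.10a, Trim Galore 0.6.7 and build GRCm38; what each did, and with which annotation, is not given in the sources used here. What the authors deposited are estimated counts per gene, not scaled between libraries, as read from the values. A side block of 10 value columns was not used.

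Counts were rounded, filtered with filterByExpr of edgeR 4.0.16 (R 4.3.3; minimum count 10, minimum total 15), scaled by TMM and tested over all genes with edgeR's quasi-likelihood test, with the day as the only factor and Benjamini-Hochberg adjustment (threshold 0.05). The biological coefficient of variation was 0.186. The SE is the size of the log2 fold change over the square root of F. RPKM is CPM per kilobase of the union of exons annotated by GENCODE M21 on GRCm38; Myl12b, with 2 identifiers there, has none. Counts were called fractional when off a whole number by more than 0.01, which 12 members were in at least 4 libraries. For 14 members an exon overlaps a gene on the opposite strand. Promoter windows are RefSeq's. On simulated day 7 against day 0 counts over 11904 genes, 61 of 100 genes changed 2-fold and 93 of 100 changed 4-fold were recovered, with 6 false calls. Recovery was counted without regard to direction. Only these genes were changed there, a far smaller share than was called in the data, so the rates need not hold for the data.

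The alternatives tried were scaling by total counts, upper quartile or RLE, no filter, a filter of 10 CPM in 3 libraries, DESeq2 1.42.0, limma-voom (limma 3.58.1), counts rounded down, the 10 most abundant other rows left out, and each library left out in turn. 1 further list of pathway genes is not reported here. The members, lists and tests were chosen with earlier results of these data known. All members are named. Named in each list are the 2 called genes most changed in its main direction of calls and the 1 most changed in the other. Further list genes are named where they limit what the count of a list shows. Isotype shares, promoter shares and likeness are descriptions with no test. The listed genes Diaph1, Diaph2, Diaph3, Fmn1, Ckm, Actc1 and Adgre1 were not analysed here.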

Additional observations from a re-analysis of the deposited data

How the results depend on the processing

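Under 15 alternatives, 35 of the 39 members called were called in the same direction in each one that tested them, and none changed direction. Members that fell numbered 34 to 37 when single libraries were left out, 35 with the filter of 10 CPM, which left Actg2 and Lmod1 untested, and 37 in the other alternatives. Members that rose numbered 2 to 3 when single libraries were left out and 1 with the 10 CPM filter, which left Myh11 untested. The members' median log2 fold change was -1.41 to -1.27 when single libraries were left out, and -1.63 under total-count scaling, where 2355 genes rose; Cfl2, not called, turned to -0.015 there. With the longest transcript as length, Actb had 71.5% and Acta2 10.9% of actins on day 0. Among tropomyosins the same length gave Tpm1 17.1% on day 7 and 40.6% on day 0, Tpm3 26.4% on day 7 and 16.4% on day 0, Tpm4 50.6% on day 7 and 39.4% on day 0, and Tpm2 3.53% on day 0. Myh10 had 36.3% of nonmuscle heavy chains on day 7 and 8.92% on day 0. Allowing 1 mismatch moved the share of promoters with a CArG box to 35.8% of member windows and 21.1% of all windows. No paired analysis was possible because the day 7 columns all carry replicate number 1. Members with few counts on day 7, Actg2 and Myl9 among them, have folds of low precision.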

Other observations

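The genes whose level by library was most like that of a member were found by Pearson's r of log2(CPM + 0.5) over the 6 libraries, among the 7708 tested genes that averaged 10 CPM or more. The libraries of a day share their treatment, so r mostly follows the difference between the days, and it is given as a description. For Acta2 they were the transcription factor Sox9, Zfp827 and the Notch coactivator Maml2, each with r of 0.9995 or more, and 1136 genes had r over 0.95. For Tagln they were S100a4, a fibroblast calcium-binding protein, with r = 0.9995, Arhgap20 with 0.9979 and Prps2 with 0.9978, and 619 genes had r over 0.95. For Myh10 they were Mif4gd, the metal-responsive transcription factor Mtf1 and Col4a1, a basement membrane collagen, with r of 0.9993 to 0.9998, and 1384 genes had r over 0.95. S100a4 stood at 24.7, 75.7 and 42.1 CPM in the day 7 libraries and at 309.96, 304 and 286 CPM in the day 0 libraries, highest on day 7 in the second library, as Tagln was.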
